A study of Fukomys damarensis and Heterocephalus glaber and Mus musculus with 160 samples.

Results

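The albumin gene cluster of the mouse was described from histone peak lists of liver and heart. It was taken as all peaks that overlap chr5:90450001-90560000 (GRCm38, 110 kb, positions counted from 1), an interval that holds Alb, Afp and Afm in this order. Of 1711588 peaks in the 29 mouse histone lists, 216 overlapped it, 207 from 12 liver libraries and 9 from 17 heart libraries. All 116 peak lists of the series together held 8953087 peaks.

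The series profiled liver and heart chromatin of mole-rats, guinea pig and mouse by ChIP-seq, in which an antibody recovers crosslinked chromatin and regions with more reads than an untreated input are called as peaks. The mice used here were wild-type C57BL/6J adult males of 2 months in both tissues, with no treatment. The antibodies recognised H3K4me3, a mark of promoters, H3K27ac, a mark of active promoters and enhancers, and H3K4me1, a mark of enhancers. Each mark was measured in the same 4 livers (85920, 85921, 85923 and 85924). Heart gave 6 H3K4me3, 6 H3K27ac and 5 H3K4me1 libraries from other mice, and 1 heart sample of each mark was a pool of 3 animals. No animal gave both tissues. Both are whole tissues, so fewer cells with a mark and less of the mark per cell cannot be told apart.

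Alb encodes serum albumin, the main protein of blood plasma, which hepatocytes secrete throughout adult life. Afp encodes alpha-fetoprotein, its fetal counterpart, which the liver makes before birth and largely stops making afterwards. Afm encodes afamin, a plasma protein that binds vitamin E. The genes arose by duplication and are a textbook case of neighbours under developmental control in liver.

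No annotation of this build was used, so the interval was read in 11 bins of 10 kb. From general knowledge of the mouse gene map, not checked against an annotation here, Alb lies in chr5:90460001-90480000 (the Alb bins), Afp in chr5:90490001-90510000 (the Afp bins) and Afm in chr5:90510001-90560000 (the Afm bins, with some flank on both sides). The bin before Alb and the bin between Alb and Afp are named as such. Exons, introns and start sites were not placed, and the marker genes of liver and heart cells were likewise not placed on this build.

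For each library the value is the covered share, the percent of bases under a peak. The fold is the enrichment given to a peak by the authors' caller, and it was compared only within a list. Read depth is unknown. Liver lists held 17431 to 19301 H3K4me3, 56871 to 63479 H3K27ac and 86486 to 113889 H3K4me1 peaks. Heart lists held 18135 to 32785, 57663 to 109724 and 20521 to 129914 in the same order. A missing peak means only that the caller's threshold was not reached.

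One heart library stood apart. Heart H3K4me3 6837 had 7 peaks in the interval, and 6 of them overlapped H3K27ac peaks of all 4 livers. Over the genome, 6298 bins of 10 kb held H3K27ac peaks in every liver and in no heart, 9.56% of the bins with this mark. The 6837 H3K4me3 list had a peak in 50.1% of them. The other 5 heart H3K4me3 lists had one in 0.651% to 6.18%, and the 4 liver H3K4me3 lists in 13.7% to 18.2%. The heart H3K27ac library of the same animal had no peak in the interval. The mean Jaccard index of the 6837 H3K4me3 list with the liver H3K27ac lists, the bases under peaks of both lists as a share of those under either, was 0.377, against 0.165 to 0.222 for the other heart H3K4me3 lists. The 6837 list had a higher mean index with H3K4me3 lists. With those of liver it was 0.550, against 0.519 to 0.618 for the other heart H3K4me3 lists. With those of heart it was 0.489, against 0.538 to 0.660. A swap or mixture of this library was not tested, so its heart values may not be those of heart H3K4me3. The H3K4me3 tests of liver against heart are given with and without it.

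**Figure D1:**
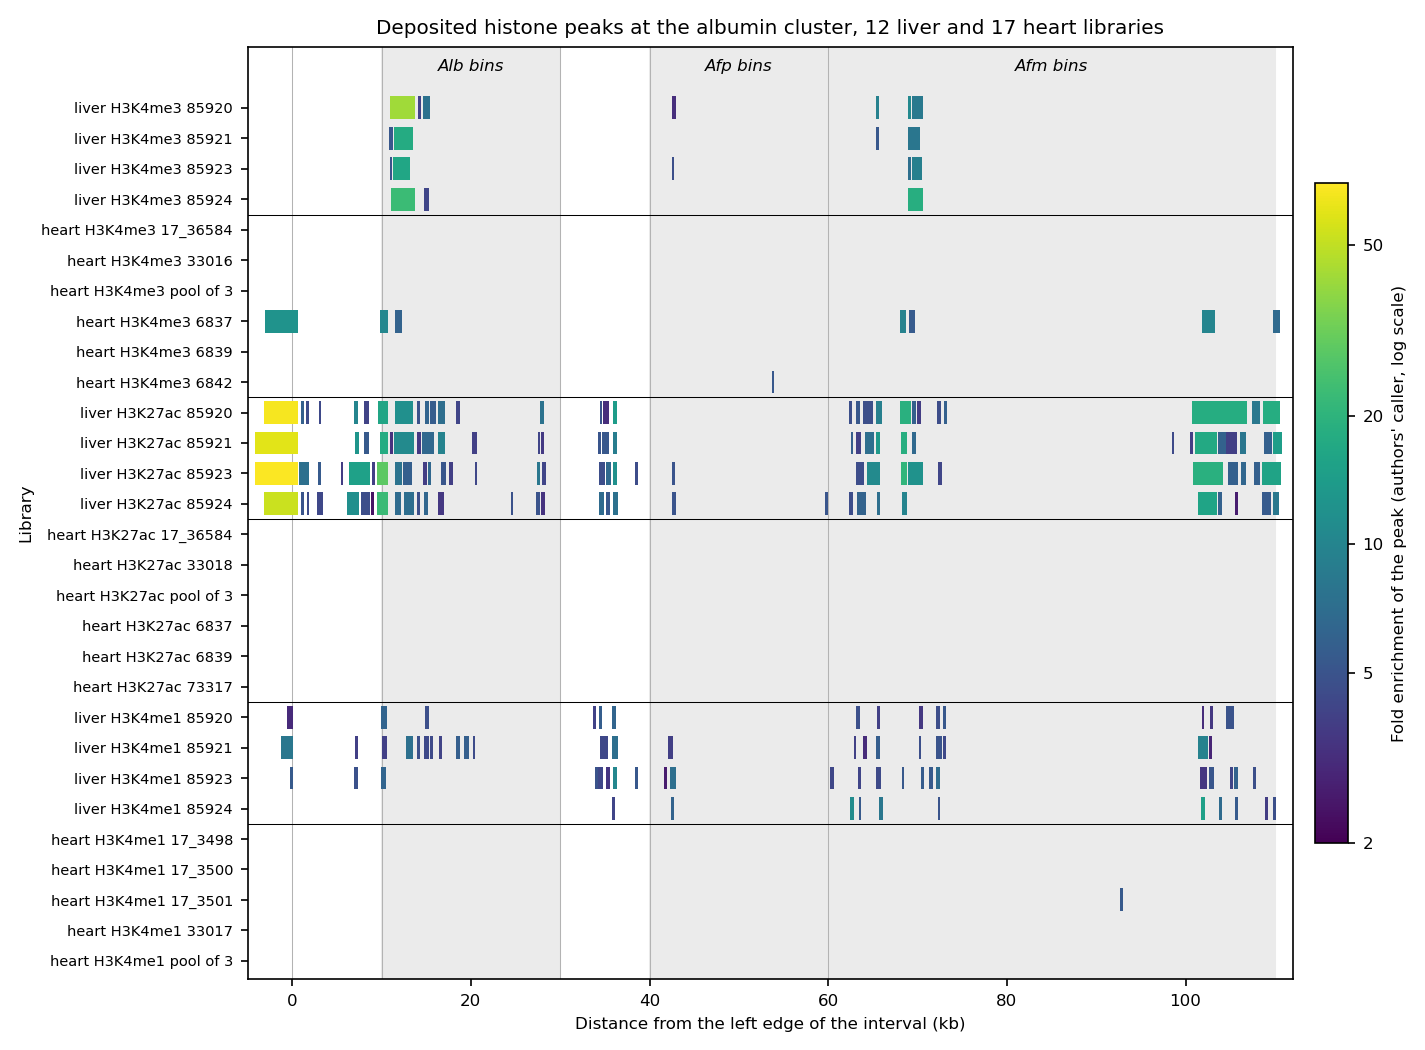
Every deposited peak of the 29 libraries in the interval (rows, libraries; horizontal axis, distance from its left edge in kb), coloured by its fold on a log scale, with the Alb, Afp and Afm bins shaded. The 12 liver rows carry 207 peaks, thinly spread in the Afp bins, and the 17 heart rows carry 9, of which 7 are in heart H3K4me3 6837.

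H3K4me3 formed 2 blocks found in all 4 livers, 1 in the Alb bins and 1 in the Afm bins. The Alb block spanned chr5:90460892-90463778. Its highest peak had a fold of 42.2 in liver 85920, 17.5 in 85921, 16.5 in 85923 and 22.7 in 85924. The block was wide for the mark but not high: the peak was 1960 to 2839 bases wide, with 6.40% to 17.6% of its list wider, while 40.9% to 61.1% of the list had a higher fold. The median fold of the lists was 27.3 to 30.3, so liver 85920 alone lay above its own list's median.

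The covered share of the Alb bins by H3K4me3 was 19.1% in liver 85920, 12.7% in 85921, 11.3% in 85923 and 16.2% in 85924. All hearts were at 0 except 6837, at 7.42%, so every liver lay above every heart. In the Afm bins the block spanned chr5:90518923-90520589. The highest H3K4me3 fold there was 10.7, 8.10, 9.28 and 18.6 in livers 85920, 85921, 85923 and 85924, below that of the Alb block in each liver. The H3K4me3 share of the Afm bins was narrow among livers, 3.37% ± 0.446 (SD, n = 4), and heart 6837 reached 5.82% there.

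H3K27ac covered far more of the cluster. It covered 21.4% of the interval in liver 85920, 18.6% in 85921, 23.6% in 85923 and 17.1% in 85924. None of the 6 hearts had an H3K27ac peak in the interval. Heart lists of this mark held 57663 to 109724 peaks, and liver lists 56871 to 63479. The highest peak crossed the left edge, before Alb. It had folds of 66.8, 59.6, 68.6 and 52.8 in livers 85920, 85921, 85923 and 85924, and was 3715 to 4854 bases wide. Its summits fell between 90448102 and 90448141, within 39 bases of each other. Only 0.347% to 0.927% of peaks in the same list had a higher fold. This peak has its summit outside the interval and enters it by its right end. Peaks with a summit inside the bin before Alb were lower, with a highest fold of 10.02, 12.8, 15.02 and 11.7.

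Within the Alb bins the H3K27ac share was 28.97% in liver 85920, 34.2% in 85921, 27.4% in 85923 and 24.7% in 85924. The highest H3K27ac peak there, with folds from 16.1 to 28.7, lay across the left edge of these bins, at chr5:90459438-90460740, in front of the H3K4me3 block rather than under it. In each liver its summit was 1420 to 1537 bases to the left of the H3K4me3 summit. Weaker H3K27ac peaks, with a highest fold of 7.13 to 11.7, covered the H3K4me3 block itself (chr5:90461445-90463590).

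In the bin between Alb and Afp all 4 livers had an H3K27ac peak in its right part, at chr5:90485859-90486417, with folds of 14.1, 8.94, 11.9 and 7.46. All 4 also had an H3K4me1 peak there. None of the 10 liver or heart H3K4me3 libraries had a peak in this bin. The Afm bins held H3K27ac at both ends: at chr5:90518071-90520618, over the H3K4me3 block in 3 of 4 livers and just left of it in 85924, and at chr5:90550557-90556838, a stretch that reached 6065 bases in a single peak in liver 85920. All 4 livers also had H3K27ac at chr5:90513104-90516025 and, across the right edge, at chr5:90558605-90560771. In the middle of the Afm bins, chr5:90530001-90540000 held no peak of any mark in any library.

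H3K4me1 was the most variable mark. It covered 5.30% of the interval in liver 85920, 9.92% in 85921, 8.58% in 85923 and 3.11% in 85924. Liver 85924 had the longest H3K4me1 list and the fewest H3K4me1 peaks here, 11 against 14 to 22. In the Alb bins the H3K4me1 share was 5.16%, 21.5%, 2.44% and 0%, so 1 liver carried most of it. Only 1 of 5 hearts had an H3K4me1 peak in the interval, 299 bases wide, in the Afm bins of heart 17_3501, where no liver had a peak of any mark.

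**Figure D2:**
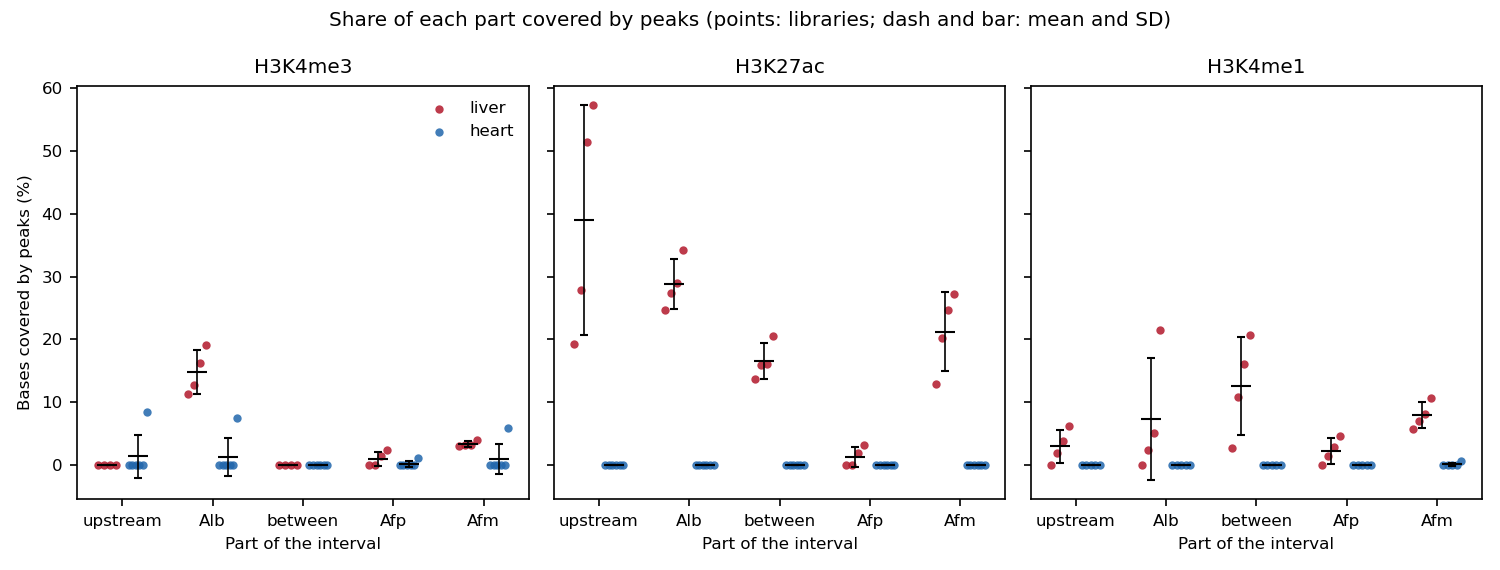
Percent of bases covered by peaks in each part of the interval (panels, marks; points, libraries; dash and bar, mean and SD; red, liver; blue, heart). For H3K27ac the liver shares of the Alb bins run from 24.7% to 34.2% and those of the Afp bins from 0% to 3.17%, with all 6 hearts at 0.

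Liver and heart were compared by the covered share, with a two-sided exact permutation test over libraries run on every 110 kb window and every 10 kb bin of the mouse genome and Benjamini-Hochberg adjusted over them. For H3K27ac the interval was covered to 20.2% ± 2.91 in liver (SD, n = 4) and 0% in heart (n = 6; adjusted exact permutation p = 0.0175). Over all 14150 windows with this mark, 22.9% were called higher in liver and 19.8% higher in heart, and the median difference was -0.142 percentage points. A larger liver excess than at the cluster was found in 160 windows, 1.13% of them. Every liver exceeded every heart in 21.1% of windows, and in 4.72%, as here, all hearts were also at 0.

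For H3K4me1 the interval was covered to 6.73% ± 3.09 in liver (SD, n = 4) and 0.0544% ± 0.122 in heart (n = 5). The adjusted exact permutation p was 0.0812 and the unadjusted p 0.00794, the smallest these groups allow. Every liver lay above every heart, as in 13.1% of all windows, so this separation was not rare. A larger liver excess than at the cluster was found in 1077 windows, 6.50% of them. With an equal number of peaks per library the difference fell from 6.67 to 0.656 percentage points (adjusted exact permutation p = 0.167), where the pooled heart list, with 20521 peaks, set that number. Library names carry a series tag, and all livers share 1 tag with 2 of the 5 hearts. Within that series the difference was 6.73 points over 4 livers and 2 hearts (adjusted exact permutation p = 0.679). Groups of 4 and 2 allow no exact permutation p below 0.05, so no call was possible there. Also within the series, the library numbers of livers and hearts form separate ranges, so tissue and number range cannot be told apart.

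For H3K4me3 it was 4.40% ± 0.940 in liver (SD, n = 4) and 0.826% ± 1.93 in heart (n = 6; exact permutation p = 0.0429, adjusted p = 0.416). A larger liver excess than at the cluster was found in 92 windows, 0.566% of all windows with this mark. Heart 6837 alone, at 4.76%, overlapped the livers, which ran from 3.67% to 5.72%. In 1.18% of all windows no heart overlapped the livers and livers were higher. Without it the difference was 4.36 percentage points in place of 3.58 (adjusted exact permutation p = 0.120), and every liver lay above every heart, as in 5.93% of all windows. No window of the genome was called for H3K4me3, with or without 6837, or for H3K4me1 at an adjusted p below 0.05. At an unadjusted exact permutation p below 0.05, liver was higher in 562 windows (3.46%) for H3K4me3, 1339 (8.39%) without 6837, and 3462 (20.9%) for H3K4me1.

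Bin by bin, 6 of the 10 bins with an H3K27ac peak were called higher in liver, against 19.1% of all bins of the genome (adjusted exact permutation p = 0.0196 each). Every liver lay above every heart in the same 6 bins, as in 18.3% of all bins. They were the bin before Alb, both Alb bins, the bin between Alb and Afp, and the first and last Afm bins. The largest difference was 65.4 percentage points in the last Afm bin, followed by 48.3 in the first Alb bin. The 2 Afp bins were not called, with differences of 1.84 and 0.68 percentage points (adjusted exact permutation p = 0.236 and 0.550).

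No bin was called for H3K4me3 or H3K4me1. Bins at the smallest exact permutation p these groups allow had an adjusted p of 0.126 for H3K4me3 and 0.0726 for H3K4me1. A bin with full separation therefore could not be called. At an unadjusted exact permutation p below 0.05, liver was higher in 3 bins for H3K4me3 and 7 for H3K4me1, against 5.48% and 19.7% of all bins. Without heart 6837 it was also 3 bins for H3K4me3, of 5 with a peak and against 9.13% of all bins, and none was called. For H3K4me3 every liver lay above every heart in 2 of 7 bins with a peak, the first Alb bin (29.7% against 2.48% on average, and against 0% without 6837) and the second Afm bin. This held for 2.2% of all bins of the genome. Without heart 6837 the first Afm bin joined them, 3 bins in all, against 6.49% of all bins. For H3K4me1 it held in 4 of 9 bins, against 12.7% of all bins: the bin between Alb and Afp and the first, second and last Afm bins. Neither Alb bin was among these 4.

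**Figure D3:**
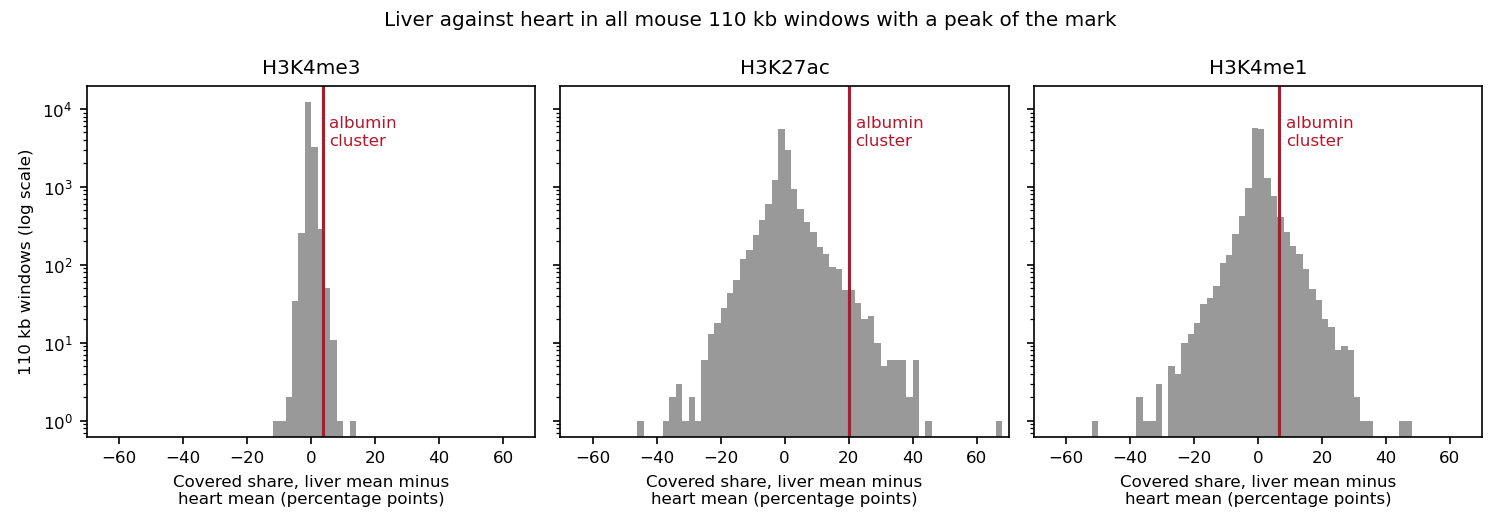
Liver minus heart mean covered share in every 110 kb window of the mouse genome with a peak of the mark (panels, marks; horizontal axis, percentage points; vertical axis, number of windows on a log scale), with the albumin cluster as a red line. The cluster lies at 3.58 for H3K4me3, 20.2 for H3K27ac and 6.67 for H3K4me1, right of the centre in each panel.

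Alb and Afp were then contrasted within each liver library. For H3K27ac the Alb bins exceeded the Afp bins by 28.97 percentage points in liver 85920, 34.2 in 85921, 25.6 in 85923 and 21.5 in 85924, a mean of 27.6 ± 5.38 (SD, n = 4). For H3K4me3 the excess was 16.7, 12.7, 9.90 and 16.2 points, a mean of 13.9 ± 3.20 (n = 4). Alb was higher in 4 of 4 livers for both marks, and the groups of values did not overlap. The two-sided exact sign-flip p was 0.13 for each, the smallest that 4 livers allow, so 0.05 could not be reached.

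H3K4me1 did not separate the genes. Alb exceeded Afp in livers 85920 and 85921, by 5.16 and 18.6 percentage points, and Afp exceeded Alb in 85923 and 85924, with differences of -2.25 and -1.40. The mean difference of 5.04 ± 9.65 points (SD, n = 4; exact sign-flip p = 0.5) rested on liver 85921, and was 0.503 without it. In heart there was no H3K27ac or H3K4me1 peak at either gene. For H3K4me3, heart 6837 had peaks in the Alb bins alone and heart 6842 a single peak of 216 bases in the Afp bins, at chr5:90503701-90503916, where no liver had one.

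**Figure D4:**
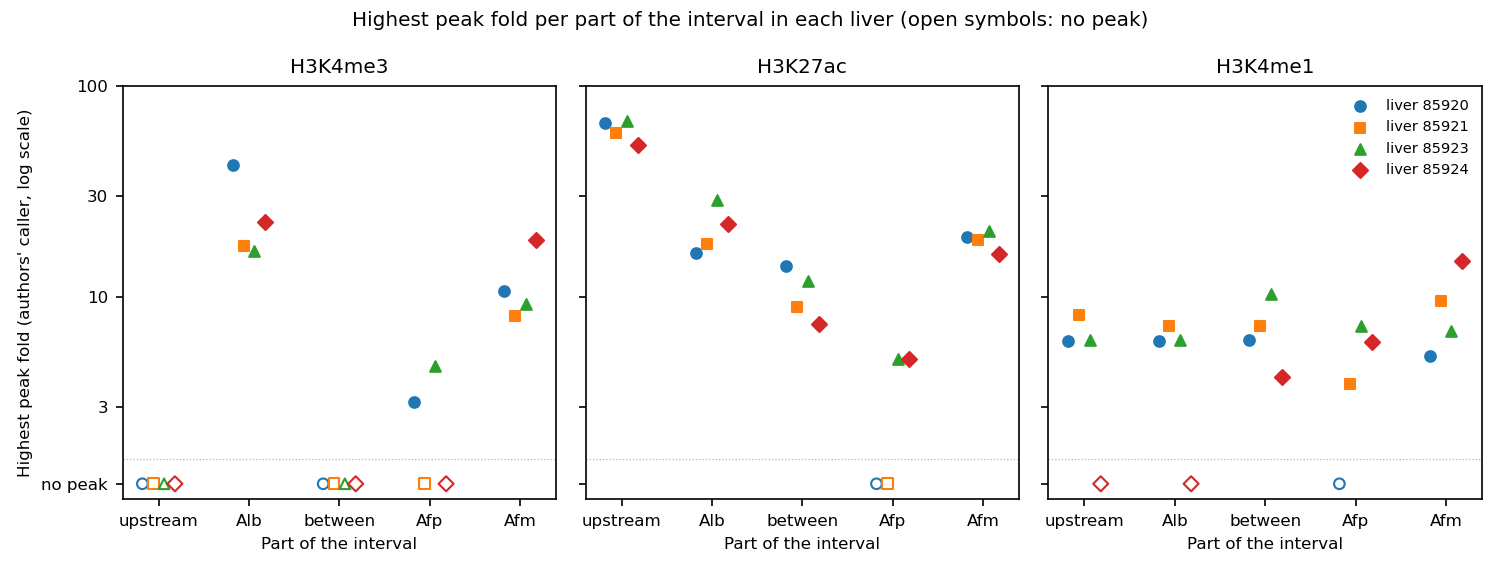
Highest peak fold in each part of the interval for each liver (panels, marks; vertical axis, fold from the authors' caller on a log scale; symbols, livers; open symbols, no peak), with a peak shown in each part that it overlaps. For H3K27ac the folds run from 52.8 to 68.6 before Alb, all from the peak whose summit lies outside the interval, 16.1 to 28.7 at Alb and 5.05 to 5.10 in the 2 livers with a peak at Afp.

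The Afp bins were not empty. A site of 472 bases, chr5:90492479-90492950, was drawn as the joined span of the H3K4me3 peaks of livers 85920 and 85923. It carried at least 1 mark in each of the 4 livers and none in the 17 hearts. The H3K4me3 peaks of these livers are there by definition. Liver 85923 had all 3 marks there, with folds of 4.72 for H3K4me3, 5.05 for H3K27ac and 7.25 for H3K4me1. Liver 85924 had H3K27ac and H3K4me1, with folds of 5.01 and 6.14. Liver 85921 had H3K4me1 alone, with 3.87, and liver 85920 H3K4me3 alone, with 3.19. Thus 7 of the 12 liver libraries had a peak at this site, at widths of 280 to 635 bases. They include the peaks that define it, and no such count was made for other sites of the genome.

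The rank of these peaks in their own lists depended on the mark. For H3K4me3 at the Afp site, 91.2% and 99.2% of the list had a higher fold, against 40.9% to 61.1% at the highest Alb peak. For H3K27ac at the site it was 69.8% in liver 85923 and 66.1% in 85924, against 7.97% to 17.8% at Alb. For H3K4me1 it was 82.3% in liver 85921, 55.3% in 85924 and 19.6% in 85923, so the last peak was among the higher ones of its list. In the same H3K4me3 list of liver 85920, the highest fold was 42.2 at Alb and 3.19 at Afp. In that of 85923 it was 16.5 and 4.72. For H3K4me1 the highest Afp peak of 85923, with a fold of 7.25, was above its highest Alb peak, with 6.25, so the order of the genes differed between marks and livers.

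Ordered by mean covered share, H3K27ac in liver ran from the bin before Alb (39.0% ± 18.3), through Alb (28.8% ± 4.01), Afm (21.2% ± 6.28) and the bin between Alb and Afp (16.6% ± 2.89), to Afp (1.26% ± 1.55; SD, n = 4 each). Neighbours in this order overlapped over the livers except the last step, from the bin between the genes (13.7% to 20.6%) to Afp (0% to 3.17%). Within each liver Alb lay above Afm, but the bin before Alb lay above Alb only in 85923 and 85924. The parts differ in length, so the shares do not order them by covered bases. The Afm bins also take in flank and a bin with no peak. For H3K4me3 the order was Alb (11.3% to 19.1%), Afm (2.97% to 4.01%) and Afp (0% to 2.36%), with no overlap between any of them, and no liver had a peak before Alb or between Alb and Afp. For H3K4me1 it was the bin between Alb and Afp (12.6% ± 7.75), Afm (7.89% ± 2.08), Alb (7.26% ± 9.70), the bin before Alb (2.96% ± 2.64) and Afp (2.23% ± 2.00), and all neighbours overlapped.

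Peaks of the livers that touched were joined into regions. Of 31 H3K27ac regions, 13 were found in all 4 livers and 9 in 1 alone. For H3K4me1 it was 5 and 18 of 35, and for H3K4me3, with only 6 regions, 2 and 1. Between livers, the Jaccard index of whole lists was 0.803 to 0.830 for H3K4me3, 0.656 to 0.709 for H3K27ac and 0.355 to 0.569 for H3K4me1. It was highest for H3K4me3, while the share of regions found in all 4 livers was highest for H3K27ac. The counts are a description with no test. No like counts were made elsewhere in the genome, so whether they are particular to the cluster was not tested.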

How the data were processed

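Histone ChIP-seq peak lists of 29 mouse libraries (12 liver, 17 heart) were used. The authors deposited 1 list per library, called with MACS2, per the submitters' processing notes, with the build GRCm38, per the file names. The aligner is not given in the sources used here, nor is the caller's version. Deposited values per peak are the fold enrichment, the −log10 p-value and −log10 q-value (lowest −log10 q 1.30) and a score, a whole number from the −log10 q. Lists carry no read numbers.

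Computed here with Python 3.11.15, NumPy 2.4.6 and pandas 2.3.3, with plots by Matplotlib 3.10.9: overlapping peaks were merged, and the covered share was taken in 110 kb windows and 10 kb bins on chromosomes 1 to 19, X and Y that held a peak of the mark. The exact permutation test used the difference of means, with Benjamini-Hochberg adjustment per mark and a threshold of 0.05. Its code was run on simulated shares spread around a common mean. Many shares here are 0, so that run does not show how the test behaves on such data. Alb and Afp were compared by an exact sign-flip test. Replicates are animals named in the labels. No pair of lists was identical. The members, bins and comparisons were chosen with earlier results of these data known. The named items are Alb, Afp and Afm and the highest-fold peak of each mark at each. Planned gene lists, cell type markers and genes like Alb needed gene positions of this build and were not analysed here. Alternatives tried were a −log10 q of at least 4, equal peak numbers, peaks per 10 kb, 5 kb more on each side, 1 library series, and leaving out libraries.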

Additional observations from a re-analysis of the deposited data

Results flagged for a closer look

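In groups of 4 to 10 libraries, a library was singled out when its gap to the nearest other exceeded a critical share of the group's range (Dixon's 95% value). Of 45 groups of values examined, 8 gave such a library, all of them in heart. Chance alone gives about 1 in 20, and groups with all other values at 0 are singled out by any peak.

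Heart H3K4me3 6837 accounted for 5 of the 8. Its covered share was 4.76% of the interval, against 0% to 0.196% in the other 5 hearts. It was 7.42% in the Alb bins, 8.40% in the bin before Alb and 5.82% in the Afm bins, with the other hearts at 0 in each. Its Alb minus Afp difference was 7.42 percentage points, against -1.08 to 0. Heart H3K4me3 6842 had 1.08% of the Afp bins covered, with the others at 0. Heart H3K4me1 17_3501 had 0.272% of the interval and 0.598% of the Afm bins covered, with the others at 0.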

How the results depend on the processing

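The H3K27ac difference of the interval kept its call under all alternatives, between 19.2 and 25.5 percentage points (adjusted p 0.0148 to 0.0308), between 19.03 and 21.2 with 1 library left out (adjusted p 0.0241 to 0.0402) and at 2.70 merged peaks per 10 kb. The H3K4me3 and H3K4me1 differences of the interval were not called under any, and within 1 library series no call was possible for H3K4me1. With all libraries the H3K4me1 interval already had the smallest exact permutation p its groups allow, and no window was called for either mark. These missing calls therefore do not show that the tissues are alike. With 5 kb more on each side, bins called for H3K27ac went from 6 to 10, bins with every liver above every heart from 6 to 10 for H3K27ac and from 4 to 8 for H3K4me1, and the differences of 3 bins changed sign, to 11.5 and 4.42 percentage points for H3K4me3 in the bin before Alb and the last Afm bin and 5.39 for H3K4me1 in the fourth Afm bin, since wider bins take in neighbouring peaks. Bins with every liver above every heart fell from 4 to 0 for H3K4me1 with equal peak numbers and from 2 to 1 for H3K4me3 by peaks per 10 kb. Left-out libraries moved Alb minus Afp between 25.3 and 29.6 points for H3K27ac, 12.9 and 15.2 for H3K4me3 and 0.503 and 7.46 for H3K4me1, which was 0 with equal peak numbers. No paired analysis was possible because no animal gave both liver and heart. Alb and Afp were already compared within each library. Depth is unknown, so a peak missing from a list cannot be set against its read number.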

Other observations

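The H3K27ac of liver did not stop at the edges of the interval. In the 10 kb to its left (chr5:90440001-90450000) peaks covered 66.3% ± 8.51 of the bases (SD, n = 4 livers). On this side livers 85920 and 85921 had less than in the last Afm bin, 61.8% and 57.6% against 82.6% and 65.6%. In the 10 kb to its right (chr5:90560001-90570000) peaks covered 89.4% ± 8.85, more in each liver than in any bin inside the interval. Going outwards, the share was 58.1%, 44.0%, 36.0% and 5.32% in the next 4 bins on the left. On the right it was 22.4% and 15.2% in the next 2 bins, and no liver had a peak in the last 2 bins examined (chr5:90590001-90610000). None of the 6 hearts had an H3K27ac peak in any of these 10 flanking bins. H3K4me3 covered 15.9% ± 5.28 of the first bin on the right in liver, and 57.1% of it in heart 6837, with the other 5 hearts at 0. These flanking bins were examined after the values inside the interval had been seen.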
